A study of Mus musculus with 6 samples.

Results

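The genes described here encode proteins that pinch vesicles off the plasma membrane: the pacsins Pacsin1, Pacsin2 and Pacsin3, the dynamins Dnm1, Dnm2 and Dnm3, and their endocytic partners Amph, Bin1, Sh3gl2 and Synj1. They were taken by symbol from the deposited table, which held all 10 of them among 22087 genes, and all 10 passed the filter on low counts that left 17759 genes. The set was chosen by function with the fold changes between genotypes in these same counts already known, so its differences between groups are a description, and the counts of calls given for it are no independent evidence. Pacsin1 and Dnm1 are the members that the authors' deposited table marks as changed.

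Poly(A) RNA came from dorsal root ganglia, which hold the cell bodies of sensory neurons next to the spinal cord, of mice aged 3 months. The 3 control libraries came from mice of genotype Kif2a fl/fl, which carry loxP-flanked alleles of the microtubule-depolymerising kinesin Kif2a, and for which the labels name no Cre. The 3 conditional knockout (cKO) libraries came from mice of genotype Kif2a fl/fl; Avil Cre, which carry the same flanked alleles and Cre driven from Avil, a gene active in sensory neurons. Both groups therefore share the flanked alleles, the control group has no Cre-only counterpart here, and cells of the ganglion without Avil activity would keep Kif2a. Whether each library is a separate animal is not in the labels, so each p-value rests on a library-to-library spread that could be technical in part.

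In clathrin-mediated and bulk endocytosis, membrane-bending proteins with a BAR or F-BAR domain gather at the neck of a forming vesicle and recruit dynamin, a GTPase that assembles there and severs the neck. Pacsins, also called syndapins, are F-BAR proteins whose SH3 domain binds the proline-rich tail of dynamin and the actin regulator N-WASP. In rat nerve terminals this binding is switched by phosphorylation: the calcium-activated phosphatase calcineurin removes phosphates from Dnm1 protein, which can then bind Pacsin1 protein. Pacsin1 and Dnm1 are the forms enriched in neurons, whereas Pacsin2 and Dnm2 are made in most tissues.

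Pacsin1 and Dnm1 were the members with the lowest levels relative to control and were low together, while their widely expressed paralogs Pacsin2 and Dnm2 stayed near the control level. The promoters of these 4 genes are shown for that reason. Each runs from 250 bases before to 50 bases after an annotated start, from RefSeq on GRCm38.p6, 5′ to 3′ on the gene's strand, with capitals where a searched motif matched on either strand.
Pacsin1, chr17:27684989-27685288, plus strand: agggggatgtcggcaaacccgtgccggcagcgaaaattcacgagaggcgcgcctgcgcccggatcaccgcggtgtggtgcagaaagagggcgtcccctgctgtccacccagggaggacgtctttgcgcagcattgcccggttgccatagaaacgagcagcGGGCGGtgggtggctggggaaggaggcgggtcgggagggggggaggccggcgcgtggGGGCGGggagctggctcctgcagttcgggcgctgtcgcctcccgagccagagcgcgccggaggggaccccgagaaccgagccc
Dnm1, chr2:32353280-32353579, minus strand: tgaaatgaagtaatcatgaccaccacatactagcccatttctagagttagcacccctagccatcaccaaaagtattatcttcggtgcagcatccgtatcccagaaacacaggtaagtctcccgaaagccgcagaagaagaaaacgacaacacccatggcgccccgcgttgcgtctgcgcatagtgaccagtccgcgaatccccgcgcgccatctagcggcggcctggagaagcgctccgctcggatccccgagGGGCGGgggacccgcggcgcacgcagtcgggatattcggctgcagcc
Pacsin2, chr15:83464557-83464856, minus strand: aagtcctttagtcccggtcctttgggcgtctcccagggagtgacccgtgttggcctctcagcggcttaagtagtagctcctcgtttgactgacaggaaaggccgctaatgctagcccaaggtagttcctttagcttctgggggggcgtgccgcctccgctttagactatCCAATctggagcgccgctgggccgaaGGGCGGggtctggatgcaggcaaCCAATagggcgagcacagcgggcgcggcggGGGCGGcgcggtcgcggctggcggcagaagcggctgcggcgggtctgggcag
Dnm2, chr9:21424658-21424957, plus strand: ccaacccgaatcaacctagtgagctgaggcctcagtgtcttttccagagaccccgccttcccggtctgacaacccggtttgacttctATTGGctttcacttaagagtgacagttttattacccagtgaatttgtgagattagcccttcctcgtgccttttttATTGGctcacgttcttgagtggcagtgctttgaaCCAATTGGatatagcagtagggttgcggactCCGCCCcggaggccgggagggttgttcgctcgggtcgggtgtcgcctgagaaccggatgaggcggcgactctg

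The motifs searched were the GC box GGGCGG, the TATA box TATAAA, the CCAAT box CCAAT, the cyclic AMP response element TGACGTCA and the E box CACGTG. The GC box is held by 35.7% of all 32851 promoters in the table and was found 2 times in Pacsin1, 1 time in Dnm1, 2 times in Pacsin2 and 1 time in Dnm2. The CCAAT box, held by 37.4% of all promoters, was found 2 times in Pacsin2 and 4 times in Dnm2, where 2 of the matches overlap each other on opposite strands, and in neither Pacsin1 nor Dnm1. It was also found 0 times in the promoters of Amph, Sh3gl2 and Synj1, which stayed near control, and at the third annotated start of Pacsin2, so it does not separate the lower genes from the others. None of the 4 promoters held the TATA box (13.6% of all promoters), the cyclic AMP response element (1.79%) or the E box (7.15%). Guanine and cytosine made up 71.7% of the Pacsin1 promoter, 59.0% of that of Dnm1, 65.3% of that of Pacsin2 and 54.0% of that of Dnm2, beside a median of 52.7% over all promoters. Promoters were searched for 9 of the 10 genes, with more than 1 annotated start for Pacsin2, Pacsin3 and Synj1. Bin1, on chromosome 18, was left out of this search. The annotated Pacsin1 locus begins at 27655509, upstream of the promoter shown, which starts at 27684989. A start at the locus beginning is therefore not covered by the motif matches given for Pacsin1. The start used in the ganglion is not known from these data.

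Total counts ran from 21683083 to 31626625 per library, and control replicate 3 was the deepest. The targeted gene Kif2a had a control level of 85.6 ± 4.87 CPM (counts scaled to a common library size), and its cKO level was 67.9 ± 1.70 CPM (SD, n = 3), or 79.3% of control, without overlap between groups. Avil had 562, 593 and 592 CPM in replicates 1 to 3 of the control group, against 239, 365 and 256 CPM in cKO replicates 1 to 3. Neither passed the edgeR test (adjusted p 1.0 for Kif2a and 0.444 for Avil), while with DESeq2 the adjusted p was 0.549 for Kif2a and 3.47e-05 for Avil. All 14 sensory neuron markers were measured in every library, and their summed level was 15010 to 18410 CPM in control and 13580 to 19390 CPM in cKO. Markers of neighbouring cells varied between libraries. Of 10 skeletal muscle markers, 9 were in the table, and they summed to between 57.4 and 245.7 CPM in control and to 342.7, 8.03 and 9.50 CPM in cKO replicates 1 to 3. The 5 fibroblast markers summed to between 1482 and 1917 CPM in control and to 3384, 874 and 1650 CPM in cKO. The 10 markers of spinal cord and brain summed to 107, 259.9 and 106 CPM in control and to 109, 40.3 and 44.4 CPM in cKO. Of the 7 tested markers of that list 6 were lower in cKO, as Pacsin1 and Dnm1 were, the median of their log2 fold changes was -0.90, and 3 did not overlap between groups. The part of such RNA in the levels of Pacsin1 and Dnm1 was not tested. Without control replicate 2 their log2 fold changes were -0.81 and -0.69. Without control replicate 2 and cKO replicate 1, the library with the largest sum in each group, they were -0.69 and -0.60. The libraries then left still differed in these markers, at 107 and 106 CPM in control and 40.3 and 44.4 CPM in cKO. Leaving out libraries therefore cannot decide the part of such RNA. Opalin and Slc6a5 of that list were at 0 in a cKO library. The 9 Schwann cell and myelin markers ran from 6057 to 7687 CPM in control and from 4109 to 9807 CPM in cKO, and the 8 macrophage markers from 108 to 148 CPM and from 77.9 to 229 CPM, each highest in cKO replicate 1 and lowest in cKO replicate 2. Thus cKO replicates 2 and 3 held far less muscle RNA than the other 4 libraries, cKO replicate 1 held the most fibroblast RNA and control replicate 2 the most RNA of the central nervous system.

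Levels of the genes relative to each other were compared per kilobase of annotated exon. In control ganglia Amph was highest at 55.6 ± 3.68 CPM per kilobase (SD, n = 3), followed by Dnm1 at 51.4 ± 4.52 and Bin1 at 49.1 ± 1.17, and the ranges of each neighbouring pair among them overlapped. Amph and Bin1 encode amphiphysins, BAR-domain proteins that bind dynamin and clathrin adaptors. Dnm3, the third dynamin, was at 30.0 ± 1.96 and Pacsin1 at 27.7 ± 1.57 CPM per kilobase, which overlapped each other and were below Bin1 in every control library. Pacsin2 at 19.0 ± 1.54, Synj1 at 17.6 ± 2.50, Sh3gl2 at 16.1 ± 1.76 and Dnm2 at 15.3 ± 1.60 CPM per kilobase formed a lower group in which neighbours were not separated by their spread. Pacsin3, the form known from muscle, was lowest at 4.74 ± 0.686 CPM per kilobase. In cKO the level of Dnm1 was 31.2 ± 5.33 and that of Pacsin1 15.6 ± 3.15 CPM per kilobase. Exon length counts once each exon of a basic set of annotated transcripts, which leaves some annotated exons out. For Sh3gl2 this gives 6551 bases against 3231 bases for its longest transcript, and for Bin1 2439 against 2682 bases. These levels and their overlaps, such as that of Bin1 with Dnm1, therefore depend on the exons counted and the isoforms made. The table gives no isoforms.

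Pacsin1 (chromosome 17, 27655509 to 27711482, plus strand) had 128, 138 and 143 CPM in replicates 1 to 3 of the control group. In cKO replicates 1 to 3 it was at 63.0, 93.5 and 73.3 CPM. All 3 cKO libraries lay below all 3 control libraries, with replicate 2 the nearest to control. The control mean was 136 ± 7.73 CPM and the cKO mean 76.6 ± 15.5 CPM (SD, n = 3), which is 56.1% of it, and the log2 fold change from the fit over all genes was -0.83 ± 0.15 (SE). Among the 10275 genes with a mean of at least 10 CPM, 26 had a lower log2 fold change. These values rest on 1374 to 4429 counts per library, and no other annotated gene overlaps Pacsin1. In bulk tissue, fewer cells that make a transcript and less transcript per cell cannot be told apart, here and for all levels that follow.

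Pacsin2 (chromosome 15, 83375607 to 83464606, minus strand), which also shapes caveolae and endosomal tubules, was at 79.0, 67.2 and 74.3 CPM in control and at 71.2, 81.1 and 70.1 CPM in cKO. The groups overlapped, with cKO replicate 2 the highest of the 6 and control replicate 2 the lowest, and the log2 fold change was 0.01 ± 0.11 (SE). Pacsin3 (chromosome 2, 91255954 to 91264679, plus strand), whose product binds the channel TRPV4, was at 9.44, 12.6 and 10.6 CPM in control and at 13.3, 8.07 and 7.70 CPM in cKO. Pacsin3 was highest in cKO replicate 1, which had the largest summed level of skeletal muscle markers, while their mean log2 deviation was 1.60 there and 1.66 in control replicate 3. The part of muscle in that value was not tested. The log2 fold change of Pacsin3 was -0.17 ± 0.24 (SE), and -0.45 without that library. Without cKO replicate 3 it was -0.02, and without control replicate 2 or cKO replicate 2 it was -0.04 and -0.05.

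Dnm1 (chromosome 2, 32308471 to 32353338, minus strand), the dynamin of synaptic vesicle recycling, had 224, 253 and 267 CPM in replicates 1 to 3 of the control group. In cKO replicates it was at 132, 180 and 140 CPM. As for Pacsin1, the groups did not overlap and cKO replicate 2 was nearest to control. The control mean was 248 ± 21.8 CPM and the cKO mean 151 ± 25.7 CPM (SD, n = 3), which is 60.8% of it, with a log2 fold change of -0.72 ± 0.15 (SE). Among genes with a mean of at least 10 CPM, 39 had a lower log2 fold change. Ciz1 and Mir199b overlap the Dnm1 locus on the opposite strand, and they share 0 bases with its exons.

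Dnm2 (chromosome 9, 21424908 to 21507759, plus strand), the dynamin of most cell types, was at 62.9, 67.4 and 54.7 CPM in control and at 62.2, 74.1 and 63.9 CPM in cKO. The groups overlapped, and the log2 fold change was 0.12 ± 0.12 (SE), and with single libraries left out it ran from 0.04 without cKO replicate 2 to 0.19 without control replicate 2. Tmed1, on the opposite strand, shares 4.97% of the exon bases of Dnm2, and Gm10176, opposite to Dnm3, shares 4.42% of those of Dnm3. Dnm3 (chromosome 1, 161982453 to 162478034, minus strand), a dynamin of brain and testis found also at postsynaptic sites, was at 244.9, 223.8 and 254.5 CPM in control and at 161, 254.8 and 197.5 CPM in cKO. cKO replicates 1 and 3 were below every control library while replicate 2 was level with the highest, and the log2 fold change was -0.24 ± 0.17 (SE), or -0.42 without replicate 2 and -0.08 without replicate 1.

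**Figure D1:**
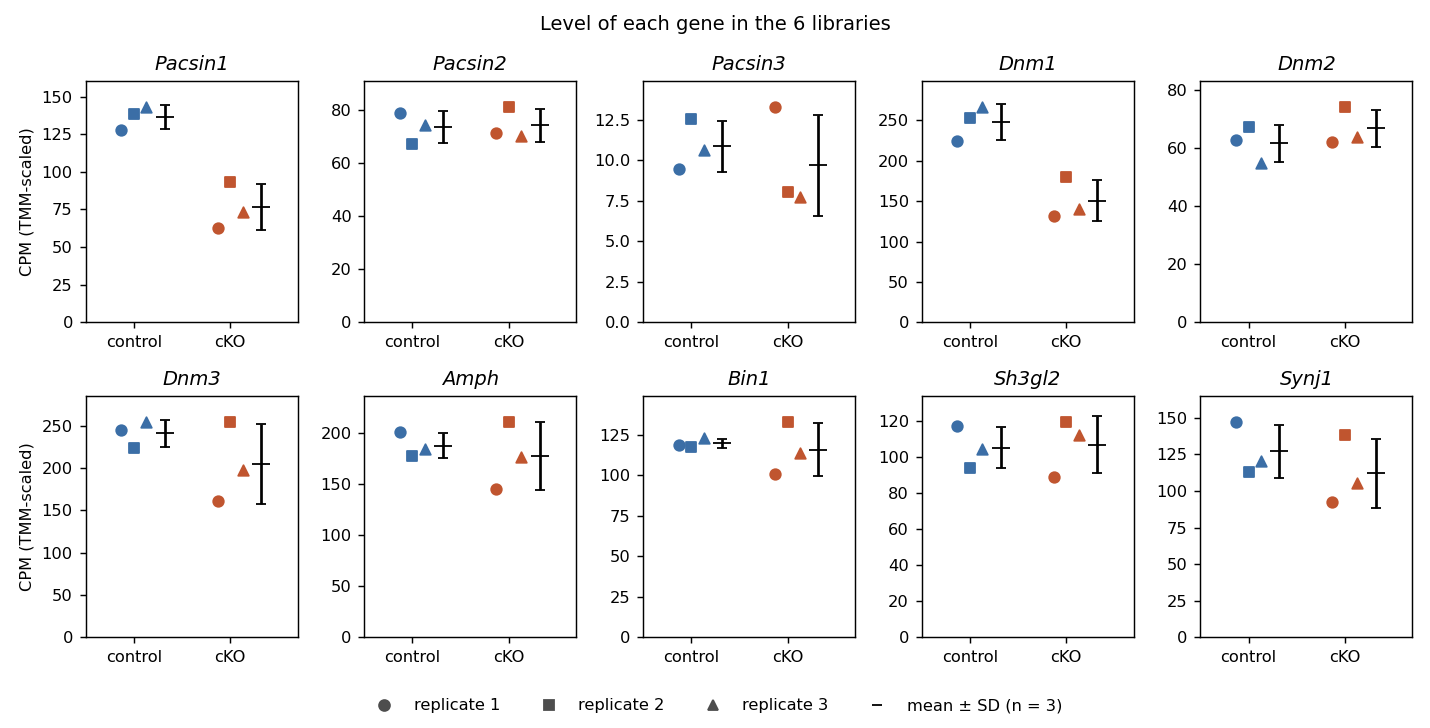
Level of each of the 10 genes in CPM (TMM-scaled, linear axes from 0) in the 3 control and 3 cKO libraries, with a symbol per replicate and the mean ± SD (n = 3) beside them. Pacsin1 and Dnm1 are the panels in which the groups do not overlap, and replicate 2 is the highest cKO library in every panel except Pacsin3.

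The 4 partners lay near the control level. Amph (chromosome 13, 18948205 to 19150921, plus strand) was at 202, 178 and 185 CPM in control and at 145, 212 and 177 CPM in cKO, with a log2 fold change of -0.08 ± 0.15 (SE). Bin1 (chromosome 18, 32377230 to 32435737, plus strand), whose muscle form shapes the transverse tubules, was at 119, 118 and 123 CPM in control and at 101, 133 and 114 CPM in cKO. Its log2 fold change was -0.05 ± 0.13 (SE), and the noncoding gene A830052D11Rik on the opposite strand shares 10.5% of its exon bases. In both amphiphysins the 3 cKO libraries spread around the control values, with replicates 1 and 3 below and replicate 2 above all of them. For Amph, replicate 3 was only just below the lowest control library, at 177.2 against 177.5 CPM.

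Sh3gl2 (chromosome 4, 85205126 to 85639195, plus strand), the neuronal endophilin that brings synaptojanin to coated vesicles, was at 117, 94.1 and 105 CPM in control and at 89.1, 120 and 112 CPM in cKO. Its log2 fold change was 0.02 ± 0.14 (SE). Synj1 (chromosome 16, 90936092 to 91011308, minus strand), the phosphoinositide phosphatase that helps strip the clathrin coat, was at 147, 113 and 121 CPM in control and at 92.7, 138 and 106 CPM in cKO, with a log2 fold change of -0.18 ± 0.17 (SE). It was -0.05 without cKO replicate 1, -0.06 without control replicate 1 and -0.35 without cKO replicate 2. Neither gene separated the groups. The sign of the small differences of Amph, Bin1, Sh3gl2 and Pacsin2 turned when single libraries were left out, and for Amph and Bin1 also with libraries scaled to sensory neuron markers.

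Of the 10 genes, 7 were lower and 3 higher in cKO, and their log2 fold changes had a median of -0.12 beside 0.006 over all 17759 genes, of which 48.4% were lower. Without cKO replicate 1, 5 were lower and the median was 0.003, where 49.2% of all genes were lower. With libraries scaled to sensory neuron markers 5 were lower and the median was 0.0004. That scaling left 24.3% of all genes lower, with a median over all genes of 0.128. For 2 of the 10 the groups did not overlap, Pacsin1 and Dnm1, both lower. Over all genes 8.66% did not overlap in either direction and 4.7% were lower without overlap, and 2.22% were lower by over 1.5-fold, as Pacsin1 and Dnm1 were. The edgeR quasi-likelihood test, at a Benjamini-Hochberg adjusted p under 0.05, called 0 of the 10 and 0.0225% of all genes. At an unadjusted edgeR p under 0.05 it called 2 of the 10, both lower, where 3.09% of all genes were lower. DESeq2 called the same 2 genes, Pacsin1 and Dnm1, where 0.135% of all genes were called lower. The authors' deposited table marks Pacsin1 at a log2 fold change of -0.83 and Dnm1 at -0.72 as passing its false discovery rate and a fold of 1.5, a mark that 0.656% of its genes carry, and none of the other 8 members. Because the set was proposed with this comparison known, nothing is read from these counts.

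Ratios of counts within a library do not depend on how libraries are scaled. The count ratio of Pacsin1 to Pacsin2 was 1.62, 2.06 and 1.93 in control replicates 1 to 3 and 0.884, 1.15 and 1.05 in cKO replicates. The groups were apart, with means of 1.87 ± 0.224 and 1.03 ± 0.135 (SD, n = 3) and a difference of -0.86 on the log2 scale. The count ratio of Dnm1 to Dnm2 was 3.56, 3.76 and 4.87 in control and 2.11, 2.43 and 2.20 in cKO, a difference of -0.84 on the log2 scale. In this ratio the 3 cKO libraries lay close together although their Dnm1 levels did not. The count ratio of Dnm1 to Dnm3, which are both neuronal, was 0.915, 1.13 and 1.05 in control and 0.815, 0.706 and 0.711 in cKO, again without overlap and with a smaller difference of -0.47. The count ratio of Pacsin1 to Dnm1, the 2 genes of lowest fold change, was 0.551 ± 0.0178 in control and 0.507 ± 0.0242 in cKO, a difference of -0.12 on the log2 scale, also without overlap. The ratio of Amph to Bin1 was 1.57 ± 0.110 and 1.53 ± 0.0782.

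**Figure D2:**
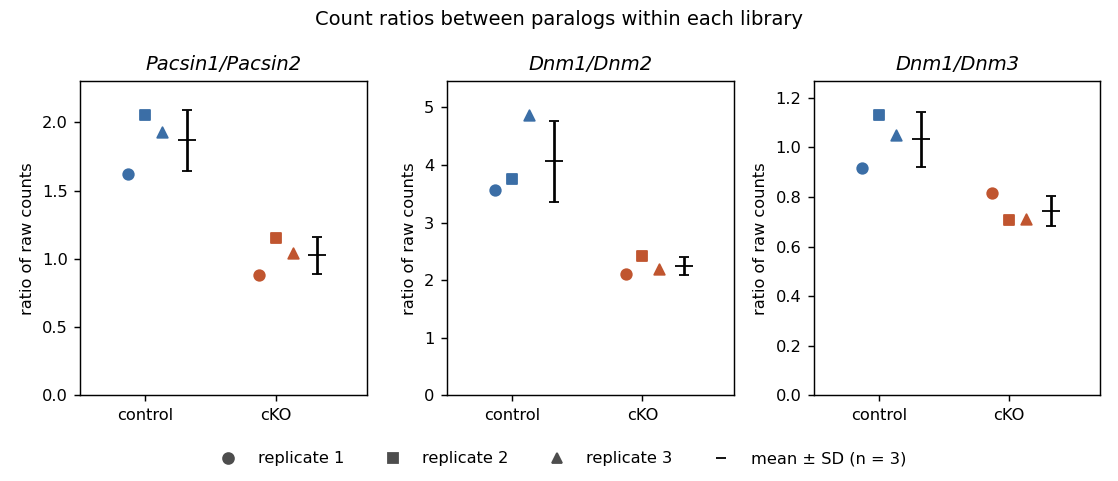
Ratio of raw counts between paralogs within each library (linear axes from 0), with a symbol per replicate and the mean ± SD (n = 3). In each panel the 3 cKO libraries lie below the 3 control libraries, from at most 1.15 against at least 1.62 for Pacsin1 to Pacsin2 to at most 0.815 against at least 0.915 for Dnm1 to Dnm3.

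Per kilobase, Pacsin1 made up 53.8 ± 2.08% of the pacsin transcripts in control and 39.7 ± 4.66% in cKO (SD, n = 3), while the share of Pacsin2 was 37.0 ± 3.20% and 49.3 ± 0.899%. Pacsin2 was thus the most abundant pacsin in each cKO library and Pacsin1 in each control library. Dnm1 made up 53.1 ± 2.54% of the dynamin transcripts in control and 42.6 ± 0.778% in cKO, Dnm3 31.0 ± 2.16% and 34.5 ± 2.26%, and Dnm2 15.9 ± 2.05% and 22.8 ± 1.77%. Dnm1 stayed the most abundant dynamin in all 6 libraries. Shares of a family add up to a whole, so a lower share of 1 member raises the others whether or not their levels differ.

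Neuronal RNA itself differed between libraries. The mean deviation of the 14 sensory neuron markers from their own means, on a log2(CPM + 1) scale, was 0.08, -0.03 and 0.12 in control replicates 1 to 3 and -0.28, 0.14 and -0.03 in cKO replicates. Pacsin1, at -0.68, -0.12 and -0.46 in cKO replicates, and Dnm1, at -0.54, -0.09 and -0.45, followed the same order of libraries within cKO, as did Avil. Within control the orders differed: Pacsin1 was at 0.33, 0.44 and 0.49 and Dnm1 at 0.22, 0.40 and 0.47, lowest in replicate 1, where the markers were lowest in replicate 2. Taken relative to the neuron markers, Pacsin1 was at 0.25, 0.47 and 0.38 in control and at -0.41, -0.26 and -0.43 in cKO, and Dnm1 was at 0.14, 0.42 and 0.35 and at -0.27, -0.24 and -0.42. The groups stayed apart for both genes, with differences of -0.73 and -0.61, and the 3 cKO libraries came closer together. For the other members the differences relative to the neuron markers ran from -0.15 for Dnm3 to 0.22 for Dnm2. Of the 14 markers, 8 were lower and 6 higher, and the median of their log2 fold changes was -0.06. Pou4f1 at -0.45 and Rbfox3 at -0.43 were the lowest, and Gap43 at 0.23 was the highest. The groups did not overlap for 2 markers that were lower and 1 that was higher.

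**Figure D3:**
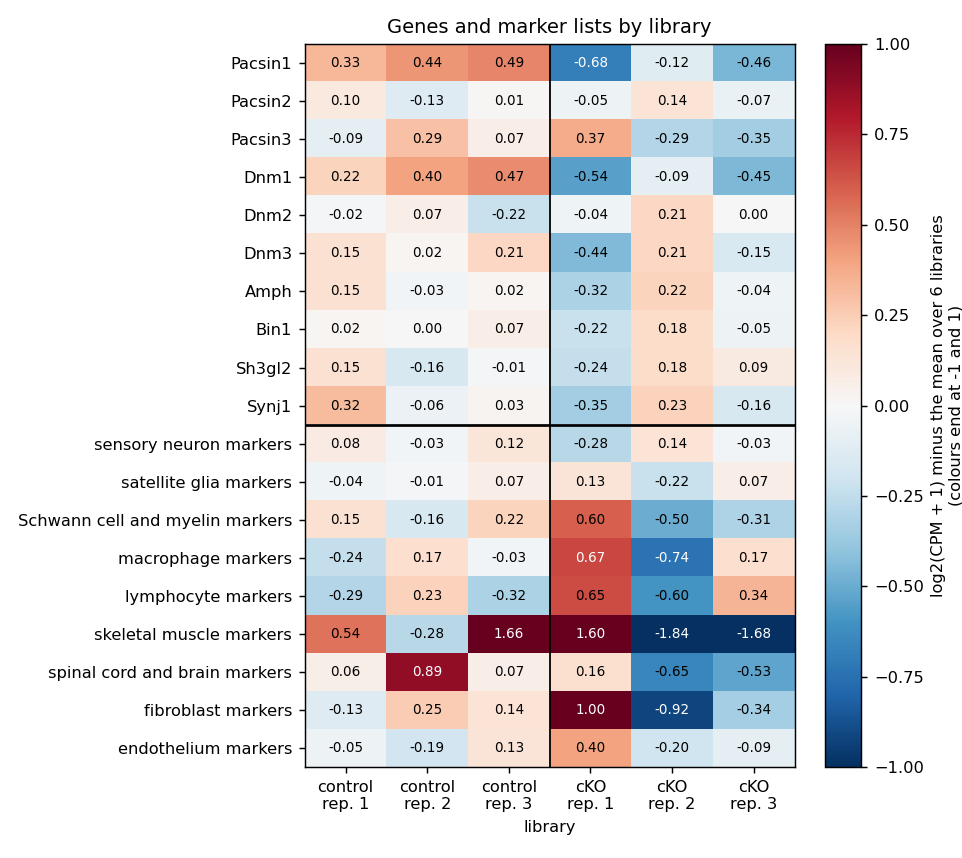
Deviation of each of the 10 genes, and mean deviation of each marker list, from its own mean over the 6 libraries, as log2(CPM + 1), with the value printed in each cell and colours ending at -1 and 1. Pacsin1 and Dnm1 are positive in all control and negative in all cKO libraries, while skeletal muscle, fibroblast and spinal cord and brain markers vary most between libraries.

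The guanine and cytosine content of the transcript was 57.4% for both Pacsin1 and Dnm1, above 89.3% and 89.1% of tested genes. It was 57.2% for Dnm2, above 88.2% of tested genes, and 52.7% for Pacsin2. With a trend on this content removed from each library, the log2 fold change was -0.75 for Pacsin1, -0.64 for Dnm1 and 0.19 for Dnm2.

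The genes whose levels ran most like those of Pacsin1 and Dnm1 over the 6 libraries were found by the root mean square difference of log2(CPM + 1) deviations among the 10275 genes with a mean of at least 10 CPM. Among the genes nearest to Pacsin1 were Dnm1, at a difference of 0.075, and Cdk5r2, an activator of the kinase Cdk5, at 0.093. Cdk5r2 was at 81.5, 92.7 and 111 CPM in control and at 45.1, 69.5 and 51.2 CPM in cKO. It was picked for its likeness to Pacsin1, so its lack of overlap between groups follows largely from that choice. Nearest to Dnm1 were Tmem151b at 0.053, Dlgap3, a postsynaptic scaffold protein, at 0.055, and Ncdn, a cytoplasmic neuronal protein, at 0.068, and Pacsin1 had rank 5 at 0.075. The 6 libraries share their depth and tissue makeup across all genes, so this likeness is a description of these libraries.

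The wider endocytic machinery was measured through 4 lists holding 79 further genes, all of which passed the filter. The edgeR test called 0 of the 79 at an adjusted p under 0.05 and 4 at an unadjusted p under 0.05, all 4 lower, and DESeq2 called 0. Over all genes 0.0225% were called by edgeR at the adjusted p, 3.09% were lower at the unadjusted p and 0.175% were called by DESeq2. In all, 55 of the 79 were lower, where 48.4% of all genes were lower. The median of their log2 fold changes was -0.07 beside 0.006 over all genes. This count depends on the scaling: it was 47 with upper-quartile scaling, where 39.4% of all genes were lower, and 31 with libraries scaled to the sensory neuron markers, which itself moved the median of all genes to 0.13 and left 24.3% of all genes lower. Without control replicate 2 and cKO replicate 1 it was 50, where 48.7% of all genes were lower. Without cKO replicate 3 it was 45, where 47% of all genes were lower. Groups were apart for 5 of the 79, each of them lower in cKO, where 4.7% of all genes were lower without overlap.

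Of the 23 genes of the clathrin coat and its adaptors, 16 were lower and 7 higher, and the median of their log2 fold changes was -0.08. Ap2a1, which encodes a large subunit of the AP2 adaptor that links clathrin to cargo, had the lowest value of all 79. It was at 69.2, 74.8 and 84.7 CPM in control and at 49.6, 59.5 and 43.4 CPM in cKO. Its groups did not overlap, and its log2 fold change of -0.58 ± 0.14 (SE) did not pass over all genes (edgeR adjusted p 0.825, DESeq2 adjusted p 0.148). The paralogous subunit gene Ap2a2 was at -0.26 ± 0.14, the cargo adaptor Ston2 at -0.39 ± 0.15, the epsin Epn1 at -0.31 ± 0.15 and the F-BAR nucleator Fcho2 at 0.21 ± 0.11, all as log2 fold changes with their SE. The clathrin chains Clta, Cltb and Cltc were at -0.13, -0.10 and 0.03. The coat genes named here had edgeR adjusted p of 0.825 to 1.0.

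Among 25 other genes for BAR-domain proteins 17 were lower and 8 higher, with a median of -0.06. Those of smallest p were Pstpip1, an F-BAR protein of blood cells, at -0.37 ± 0.17, Arhgap26 at -0.31 ± 0.15, Arhgap44 at -0.28 ± 0.15 and the sorting nexin Snx9, which also binds dynamin, at -0.21 ± 0.12. The endophilins Sh3gl1 and Sh3gl3, paralogs of Sh3gl2, were at 0.04 and 0.13. None of these passed (edgeR adjusted p of 1.0 for each).

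Of 24 genes for binding partners and regulators of pacsins and dynamins, 18 were lower and 6 higher, with a median of -0.07. Gsk3a, a kinase related to the one that rephosphorylates dynamin, was at 35.2, 41.7 and 43.5 CPM in control and at 31.8, 30.5 and 28.4 CPM in cKO. The groups did not overlap, and the log2 fold change of -0.41 ± 0.12 did not pass (edgeR adjusted p 0.977). The adaptor Grb2 was at -0.30 ± 0.12, the actin-binding Dbnl at -0.27 ± 0.13 and Ehd1, a membrane-remodelling ATPase that pacsins bind, at -0.24 ± 0.16. The calcineurin genes Ppp3ca, Ppp3cb and Ppp3r1 were at -0.07, -0.08 and -0.07, Cdk5 at -0.01 and Gsk3b at -0.16, and Wasl, which encodes N-WASP, was at -0.19. The edgeR adjusted p was 1.0 for each of these. Caveolar Cav1 and Cavin1 were highest in cKO replicate 1, at 148 and 133.5 CPM, where the control libraries held 80.1 to 106 CPM of Cav1 and 72.0 to 89.1 CPM of Cavin1. Summed markers of fibroblasts, endothelium, skeletal muscle, Schwann cells, macrophages and lymphocytes were also highest in that library. The part of these cells in the levels of Cav1 and Cavin1 was not tested.

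Among 7 genes of uncoating and phosphoinositide turnover, 4 were lower and 3 higher, with a median of -0.03. Synj2, the paralog of Synj1, was at -0.33 ± 0.17, the cyclin G-associated kinase Gak at -0.17 ± 0.15, auxilin Dnajc6 at -0.16 ± 0.16 and the phosphatase Ocrl at 0.09 ± 0.14, each with an edgeR adjusted p of 1.0. The uncoating chaperone Hspa8 was at -0.03.

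**Figure D4:**
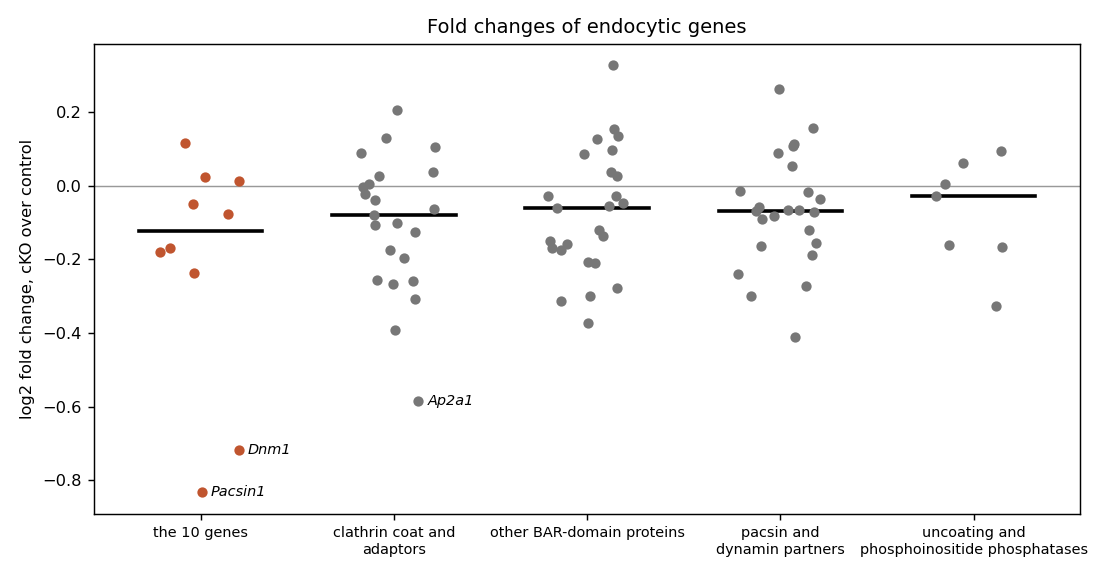
Log2 fold change of cKO over control for the 10 genes and for the 79 genes of the 4 further endocytic lists, with a point per gene and a line at the median of each set. Pacsin1 at -0.83 and Dnm1 at -0.72 lie below all other points, and the lowest of the 79 is Ap2a1 at -0.58.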

How the data were processed

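Poly(A) RNA of 6 libraries in 2 genotypes (control and conditional knockout, cKO) was measured, and groups and replicate numbers came from the sample labels. The deposited table holds whole read counts per gene symbol, per the file headers. Cutadapt, STAR, DESeq2 and the build mm10 appear in the submitters' processing notes. The sources used here do not give their versions, the read counter or whether strand was used. The authors also deposited a normalized signal (the count divided by a factor per library), regularized log2 values, log2 fold changes, p-values and false discovery rates from fdrtool, per the file headers. Only the raw counts entered the fits.

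Counts were fitted with edgeR 4.0.16 in R 4.3.3: filterByExpr (minimum count 10), TMM scaling, a robust quasi-likelihood F test without covariates, and Benjamini-Hochberg adjustment over 17759 genes at a threshold of 0.05. Standard errors came from the F statistic. CPM use TMM-scaled totals. DESeq2 1.42.0 was run without independent filtering, so that adjustment covered the 17746 genes with a p-value. The common biological coefficient of variation was 0.205. The fits were checked on simulated counts. No pair of libraries agreed within sampling noise (chi-square per degree of freedom of at least 15.7).

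The members, the gene lists and the marker lists were chosen with earlier results of these data known. Named are all 10 members, Kif2a and Avil, the genes of each further list that pass or else up to 4 of smallest p whose mean is 1 CPM or more, and the 3 genes most like Pacsin1 and Dnm1, of which 1 is not reported here. Others were named after their values were seen: Ap2a2, Clta, Cltb, Cltc, Sh3gl1, Sh3gl3, Ppp3ca, Ppp3cb, Ppp3r1, Cdk5, Gsk3b, Wasl, Cav1, Cavin1, Hspa8, Pou4f1, Rbfox3 and Gap43. Positions, exon lengths and overlaps come from the basic set of GENCODE M21 on GRCm38, the build of mm10. Transcript base content (98.3% of tested genes) comes from the GENCODE M21 transcript sequences, and promoters from RefSeq on GRCm38.p6. Alternatives were 2 other scalings, DESeq2, limma-trend (limma 3.58.1, pseudocount 1), 2 other filters, the replicate number as a block, and each library left out in turn. Added after seeing the data were a scaling to sensory neuron markers, subtraction of a lowess curve (span 0.3) over transcript base content, and leaving out control replicate 2 together with cKO replicate 1.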

Additional observations from a re-analysis of the deposited data

How the results depend on the processing

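Over all genes the edgeR count of 4 became 31 with DESeq2, 0 with the replicate number as a block, 1 with scaling to sensory neuron markers and 25 without control replicate 2 and cKO replicate 1, and ran from 0 to 13 when single libraries were left out (0 without cKO replicate 3, 1 without control replicate 1 or 2, 10 without cKO replicate 1, 13 without cKO replicate 2). The count of the 10 endocytic genes, 0, became 2 with DESeq2 and ran from 0 to 1 with each library left out (1, Pacsin1, without cKO replicate 2). The cause was not tested, and since the genes were chosen with this comparison known, these counts are no independent evidence. Their median log2 fold change ran from -0.186 to 0.00349 with each library left out. Over the 16 alternatives the log2 fold change of Pacsin1 ran from -0.996 to -0.689 and that of Dnm1 from -0.861 to -0.603. Directions turned for 4 genes with values near 0. Without control replicate 2 and cKO replicate 1, Pacsin2 was at -0.00738, Amph at 0.0197 and Bin1 at 0.0384. Scaled to neuron markers, which moved the median of all genes from 0.006 to 0.128, Amph was at 0.0169 and Bin1 at 0.0515. With the base content trend removed, Bin1 was at 0.000973 and Sh3gl2 at -0.013. With each library left out, Pacsin2 ran from -0.0512 to 0.0663, Amph from -0.215 to 0.0605, Bin1 from -0.156 to 0.0531 and Sh3gl2 from -0.059 to 0.152. The cause of these turns was not tested. Of the 79 further genes 0 passed in any of the 16 alternatives. Same-numbered libraries deviated in opposite directions (r of -0.186, -0.256 and -0.116 across genes), and none correlated best with its own number. These deviations are centred within each group and carry differences in tissue makeup, so they cannot show whether the numbers mark a shared batch. The labels do not say what the numbers mark. With the replicate block Pacsin1 was at -0.851. Pacsin3 had the fewest counts of the 10 genes, 180 to 329 per library.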
